A study of Mus musculus with 6 samples.

Results

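Of 134964 peaks in 6 lists, 3717 had their centre on a simple repeat, a satellite or a low-complexity stretch, and these repeat peaks are described here. They were taken as every peak whose detailed annotation, given by HOMER for the peak centre, named 1 of these 3 classes. There were 2090 simple repeat peaks, 243 satellite peaks and 1384 low-complexity peaks. The lists came from chromatin immunoprecipitation sequencing (ChIP-seq) of the transcription factors C/EBPα (antibody sc-61X), IRF8 (sc-32528x) and JUNB (sc-46x) in wild-type mouse bone marrow-derived macrophages (BMDMs), on a C57BL/6 background per the study's methods. The mice were 8 to 12 weeks old, the marrow cells grew for 6 days in L929 supernatant as the source of M-CSF, and the chromatin was fixed with DSG and formaldehyde. Each factor was profiled in cells without IL-4 (control) and in cells given 20 ng/ml IL-4 for 1 h, with 1 sample in each of the 6 groups. There was no replicate, so no test between conditions was possible, and the percentages carry Wilson 95% binomial intervals that cover counting error only. The comparison of both conditions asked whether binding of macrophage lineage-determining factors differs after IL-4.

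Simple repeats are short units copied head to tail, low-complexity stretches are rich in 1 or 2 bases without a strict period, and satellites are longer units in large arrays. The hexamer TTAGGG makes up vertebrate telomeres, where the shelterin complex binds it, and older copies lie inside chromosomes as interstitial telomeric sequences. GSAT_MM is the gamma or major satellite of the mouse, which fills the heterochromatin beside the centromeres. IRF8 recognises GAAA elements, often as pairs or next to the GGAA core of PU.1, JUNB binds the AP-1 element as a dimer with a FOS or JUN partner, and C/EBPα binds a palindrome as a dimer. Reads from tandem repeats often match the genome in many places, so a peak on a repeat also depends on how the aligner places such reads.

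Repeats other than the telomeric hexamer that recur in the results are shown first, as plus-strand mm10 sequence taken from the reference genome. Capitals mark the perfect tandem copies of the unit that names each line. The pentamer CATTC, which is GAATG on the other strand, is shown where it had its highest JUNB score (chr17:56199966-56200125, intron 10 of the transcript NM_172624 near D17Wsu104e). The related CACTC repeat is shown because it held the highest score of the whole JUNB control list (chr17:4626300-4626459, intergenic, nearest to Arid1b).
Pentamer CATTC: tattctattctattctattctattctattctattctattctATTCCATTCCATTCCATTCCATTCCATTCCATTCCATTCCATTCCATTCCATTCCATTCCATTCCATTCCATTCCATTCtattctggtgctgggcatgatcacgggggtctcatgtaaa
Pentamer CACTC: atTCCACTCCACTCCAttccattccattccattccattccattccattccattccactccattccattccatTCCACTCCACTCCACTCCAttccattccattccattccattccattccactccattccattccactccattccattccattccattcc

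A further 4 hexamers were found under IRF8 peaks. GAAAGA is shown in intron 1 of Map4 (chr9:109953576-109953735) and GAAGCA in an intergenic stretch near Zfp619 (chr7:40061227-40061386), each at its highest IRF8 control score. GGTTTT is shown near Il31 (chr5:123464899-123465058, intergenic), its highest control score among A-rich and T-rich members, and GGGAAA in intron 5 of Prkcb (chr7:122466129-122466288), its highest score after IL-4. The CA repeat upstream of Foxe3 (chr4:114934173-114934332, intergenic) is shown because it had the highest score of any repeat peak of IRF8, and the middle of the gamma satellite on chromosome 14 (chr14:19417540-19417699, intergenic, near Gm5458) because it was the widest member. The gamma satellite has no short unit and is therefore all in lower case.
Hexamer GAAAGA: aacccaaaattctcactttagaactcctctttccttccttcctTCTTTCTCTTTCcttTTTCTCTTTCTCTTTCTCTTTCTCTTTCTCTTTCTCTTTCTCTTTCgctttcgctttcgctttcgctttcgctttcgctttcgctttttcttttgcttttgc
Hexamer GGTTTT: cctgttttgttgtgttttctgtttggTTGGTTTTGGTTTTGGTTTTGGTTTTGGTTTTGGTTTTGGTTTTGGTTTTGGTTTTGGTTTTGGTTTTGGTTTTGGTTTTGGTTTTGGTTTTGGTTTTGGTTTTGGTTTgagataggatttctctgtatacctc
Hexamer GGGAAA: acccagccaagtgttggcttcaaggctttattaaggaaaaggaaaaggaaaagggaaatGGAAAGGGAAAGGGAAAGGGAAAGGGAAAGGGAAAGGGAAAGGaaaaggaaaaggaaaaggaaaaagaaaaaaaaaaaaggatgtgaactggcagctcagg
Hexamer GAAGCA: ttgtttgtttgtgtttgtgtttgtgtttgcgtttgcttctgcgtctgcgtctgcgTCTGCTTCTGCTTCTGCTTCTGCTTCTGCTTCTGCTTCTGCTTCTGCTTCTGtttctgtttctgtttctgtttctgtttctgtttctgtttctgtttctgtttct
CA repeat: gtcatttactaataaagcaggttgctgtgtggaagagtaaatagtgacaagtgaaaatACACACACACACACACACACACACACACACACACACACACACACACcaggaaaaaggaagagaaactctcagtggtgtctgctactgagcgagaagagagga
Gamma satellite: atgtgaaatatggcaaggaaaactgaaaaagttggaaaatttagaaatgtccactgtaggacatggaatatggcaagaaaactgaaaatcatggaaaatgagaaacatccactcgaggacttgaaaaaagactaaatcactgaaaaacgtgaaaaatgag

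The 3 classes were spread over the factors in different ways. C/EBPα had 225 repeat peaks in control and 231 after IL-4, which was 0.919% (0.807 to 1.05) and 0.939% (0.826 to 1.07) of its lists. IRF8 had 1435 and 1461, or 3.82% (3.63 to 4.02) and 3.47% (3.30 to 3.65). JUNB had 193 and 172, or 4.90% (4.27 to 5.62) and 7.40% (6.40 to 8.53). Among JUNB peaks with a score of at least 10 the shares were 9.38% and 25.2%. That limit lay below the upper quartile of all JUNB scores in control (11.58) and above it after IL-4 (8.7). It therefore kept a smaller top part of the list after IL-4. The JUNB share was higher after IL-4 although the number of repeat peaks was lower, because the whole JUNB list went from 3940 to 2325 peaks. Low-complexity peaks were found mostly in the IRF8 lists, with 647 in control and 679 after IL-4, against 26 and 17 for C/EBPα and 9 and 6 for JUNB. Simple repeats made up most repeat peaks of C/EBPα (171 and 193) and JUNB (163 and 143). Satellites were few in every list, between 21 and 75.

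**Figure D1:**
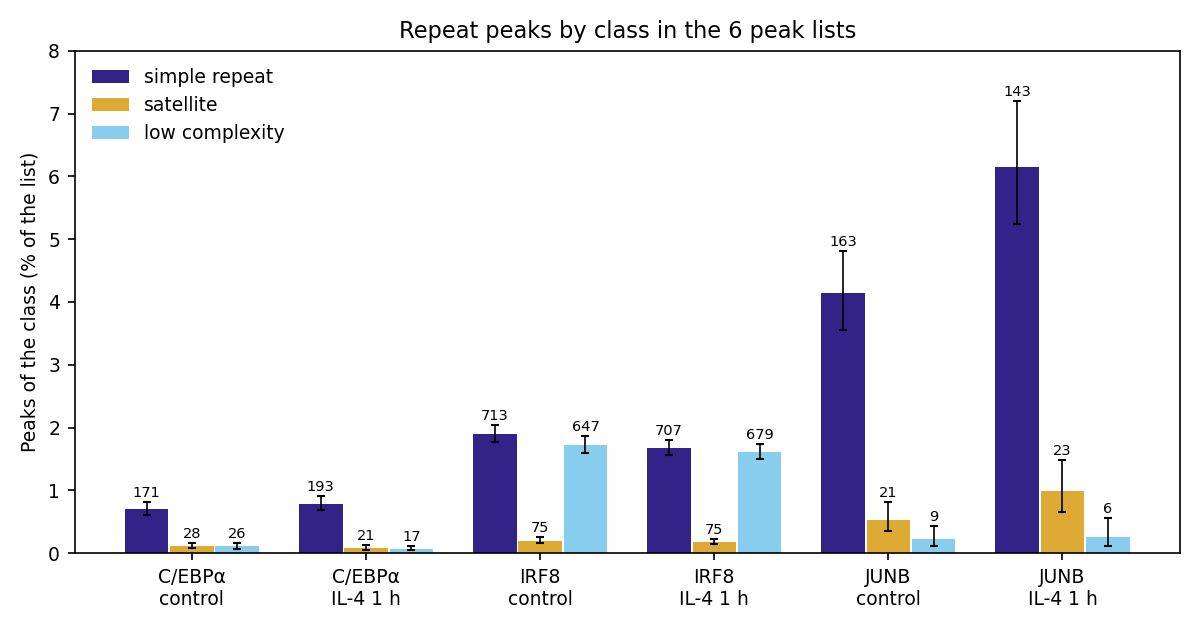
Share of each peak list, in percent, whose peak centre lay on a simple repeat, a satellite or a low-complexity stretch. Bars start at 0, error bars are Wilson 95% intervals and the number above each bar is the count of peaks. The IRF8 lists hold nearly as many low-complexity (647 and 679) as simple repeat peaks (713 and 707), while the JUNB lists hold almost only simple repeats (163 and 143).

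The annotation was checked against the sequence. Of the 2091 members annotated with a repeat unit, which were the 2090 simple repeats and 1 satellite peak named (CATTC)n, 1893 (90.5%) held the unit in at least 2 copies or 12 bases without a mismatch. Members lay between genes in 2245 cases (60.4%) and in introns in 1472 (39.6%), and none was annotated as promoter or exon, since HOMER gives those features priority over repeats.

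The peak score is deposited without a unit. It was read as a rank of evidence within a list, since it also depends on read depth, which is unknown here. JUNB repeat peaks stood at the top of their lists. Of the members, 36.8% in control and 51.7% after IL-4 were in the top 10% of the JUNB scores, against 10% and 10.2% of all peaks by construction. C/EBPα had 11.1% and 9.96% of its members there, and IRF8 had 9.06% and 8.76%, with 10% of all peaks in each list. The median score of JUNB members was 12.6 in control (quartiles 7.44 and 23.2) and 13.8 after IL-4 (7.51 and 23.97), against 7.88 and 6.21 over all JUNB peaks. JUNB members were also wider, with medians of 275 and 274 bp against 214 and 196 bp, whereas C/EBPα members (264 and 267 bp) and IRF8 members (261 and 283 bp) were close to the medians of all peaks (267 and 269 bp, 268 and 291 bp). Within the JUNB lists simple repeats led, with 41.1% and 55.2% in the top 10%, and none of the 9 and 6 low-complexity peaks was there.

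How often the sequence of a peak recurs was measured as the share of its 31-base stretches, within 200 bp around the centre, that are found once in the assembly. Under 50% of these stretches were unique in 22.7% and 22.5% of C/EBPα members, against 2.42% and 2.45% of all peaks. In IRF8 this applied to 33.4% and 33.3% of members against 4.3% and 4.71% of all peaks, and in JUNB to 42.0% and 39.5% against 4.62% and 7.53%. Among IRF8 members satellites were least unique, with 58.7% and 52.0% below this limit. A low share of unique stretches was thus more frequent among members than among all peaks in every list. Members were chosen by a repeat annotation of the centre, so this difference is partly built into the choice. The median copy number of a stretch was still 1 among the members of every list. The part of read placement and of the control library in these peaks was not tested.

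To ask whether the same places were called for all factors, touching peaks from the 6 lists were joined into 60847 regions, and 2307 of these held at least 1 repeat peak. A peak of every one of the 6 lists was present in 102 of the 2307 (4.42%, 3.66 to 5.34), against 1.63% of all regions. By class, this held for 91 of 1285 simple repeat regions (7.08%), 6 of 111 satellite regions (5.41%) and 6 of 927 low-complexity regions (0.647%), with 16 regions counted in more than 1 class. A region needed only 1 repeat peak to be counted, so regions with peaks in more lists had more chances to be included. All 6 lists had a repeat peak in 43 of the 102 regions. That was so in 38 of the 91 simple repeat, 6 of the 6 satellite and 0 of the 6 low-complexity regions. IRF8 alone had a peak in 69.3% of the member regions, against 49.7% of all regions. This share was 58.0% for simple repeats, 62.2% for satellites and 85.8% for low complexity. The telomeric hexamer accounted for most of the sharing, and without it 43 of 2189 member regions (1.96%, 1.46 to 2.64) were in all 6 lists. Of the member regions under 50% unique 29 of 658 (4.41%) were in all 6 lists, and of the others 73 of 1649 (4.43%). These equal shares joined differences of opposite direction, since it was 22 of 35 (62.9%) against 37 of 83 (44.6%) for the hexamer, and 7 of 623 (1.12%) against 36 of 1566 (2.30%) for the rest.

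**Figure D2:**
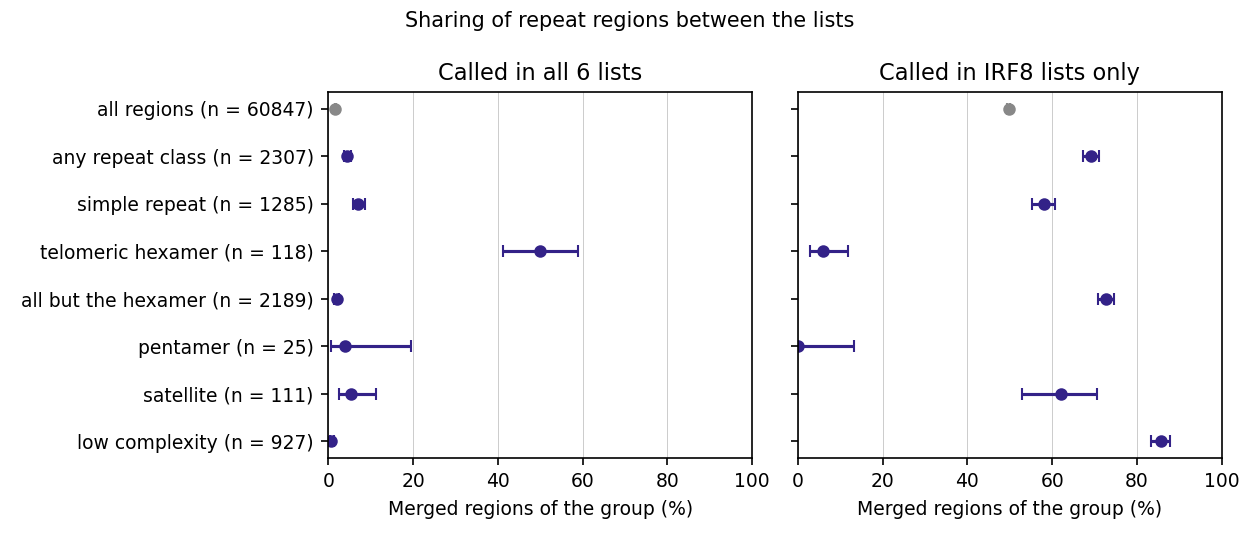
Percent of merged regions called in all 6 lists (left) and in IRF8 lists only (right), for all regions (grey) and for groups of repeat regions (blue), with the number of regions beside each name. Points are shares and bars Wilson 95% intervals. The telomeric hexamer stands apart with 50% in all 6 lists, and low complexity has the highest IRF8-only share, 85.8%.

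The telomeric hexamer, annotated (TTAGGG)n or (CCCTAA)n, was the centre of 85 C/EBPα peaks in control and 91 after IL-4, 57 and 87 IRF8 peaks, and 67 and 72 JUNB peaks. This group and the units below were singled out after their values had been seen. The peaks formed 118 regions, of which 59 (50%, 41.1 to 58.9) had a peak in all 6 lists, against 1.63% of all regions. All 3 factors had a peak in at least 1 condition in 89 of them (75.4%, 66.9 to 82.3), against 5.56% of all regions. Of the JUNB hexamer peaks, 34 in control (50.7%) and 49 after IL-4 (68.1%) were in the top 10% of scores, which held 395 and 237 peaks in all.

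The highest hexamer scores lay at the ends of chromosomes. Mouse chromosomes carry the centromere at their proximal end, and the assembly leaves unknown bases beyond the last known base at the distal end. Within 10 kb of that last known base there were 17 hexamer regions on 16 chromosomes, and 16 of them reached between 77 and 123 bases past it. All 17 were annotated TTAGGG on the plus strand, while the 101 regions elsewhere were annotated TTAGGG in 45 cases and CCCTAA in 56. No hexamer region lay within 10 kb of the first known base of a chromosome. The bases before that first base are also unknown in the assembly, on chromosome 1 up to position 3000001, so no peak could be called on them. A 31-base stretch from an end region occurred a median of 1835 times in the assembly, and one from a region elsewhere 1 time.

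In C/EBPα the end regions had a median score of 96.4 in control (15.4 to 145, n = 16) and 115 after IL-4 (21.0 to 175, n = 16). The regions elsewhere had medians of 15.9 (n = 80) and 16.9 (n = 83). In IRF8 the medians were 49.2 and 65.1 at the ends (n = 16 each) and 8.04 (n = 65) and 11.9 (n = 87) elsewhere. In JUNB they were 65.8 (n = 15) and 62.7 (n = 17) at the ends and 12.6 (n = 66) and 11.3 (n = 77) elsewhere. The ranges of both places overlapped in every list.

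The region at the end of chromosome 19 (nearest to Csf2ra) had C/EBPα scores of 123 (control) and 175 (IL-4), IRF8 scores of 67.9 and 112, and JUNB scores of 69.2 and 74.1. At the end of chromosome 7 (nearest to Mrgprd) the scores were 123 and 131, 55.3 and 91.6, and 88.6 and 74.8 in the same order. At the end of chromosome 12 (nearest to Tmem196) they were 145 and 144, 50.2 and 70.2, and 69.1 and 96.7, the last being the highest score of the JUNB list after IL-4. All 3 ends thus scored higher after IL-4 in IRF8, while C/EBPα and JUNB each had an end that did not. The ends of chromosomes 2, 16 and 3, nearest to Gm14496, A630089N07Rik and Wls, also ranked among the 6 strongest shared simple repeat regions. The remaining one of these 6 lay 122684 bases before the end of the known sequence of chromosome X, near Asmt, with 118 and 152 for C/EBPα, 60.7 and 107 in IRF8, then 73.8 and 81.6 in JUNB. None of its 31-base stretches was unique. The weakest end was that of chromosome 15, with 15.4 and 21.0 for C/EBPα, 5.71 and 11.9 for IRF8, no JUNB peak in control and 12.5 after IL-4.

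Hexamer regions scored higher after IL-4 more often than the peaks of each list as a whole. In the 59 regions present in all 6 lists the IRF8 score was higher after IL-4 in 51 (86.4%, 75.5 to 92.97), with a median log2 ratio of IL-4 over control score of 0.64 (quartiles 0.34 and 0.83). At the chromosome ends it was higher in 16 of 16, with a median log2 ratio of 0.74, and elsewhere in 49 of 60, with 0.56. Over all IRF8 pairs of control and IL-4 peaks, 55.4% scored higher after IL-4, with a median log2 ratio of 0.08. The C/EBPα score was higher in 41 of the 59 regions (69.5%, 56.9 to 79.7; median log2 ratio 0.15), against 49.7% of all C/EBPα pairs. The JUNB score was higher in 39 of 59 (66.1%, 53.4 to 76.9; median log2 ratio 0.13), against 26.4% of all JUNB pairs, whose median log2 ratio was -0.54. Depth, library kit and background of the single samples cannot be told apart from IL-4 in these values.

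**Figure D3:**
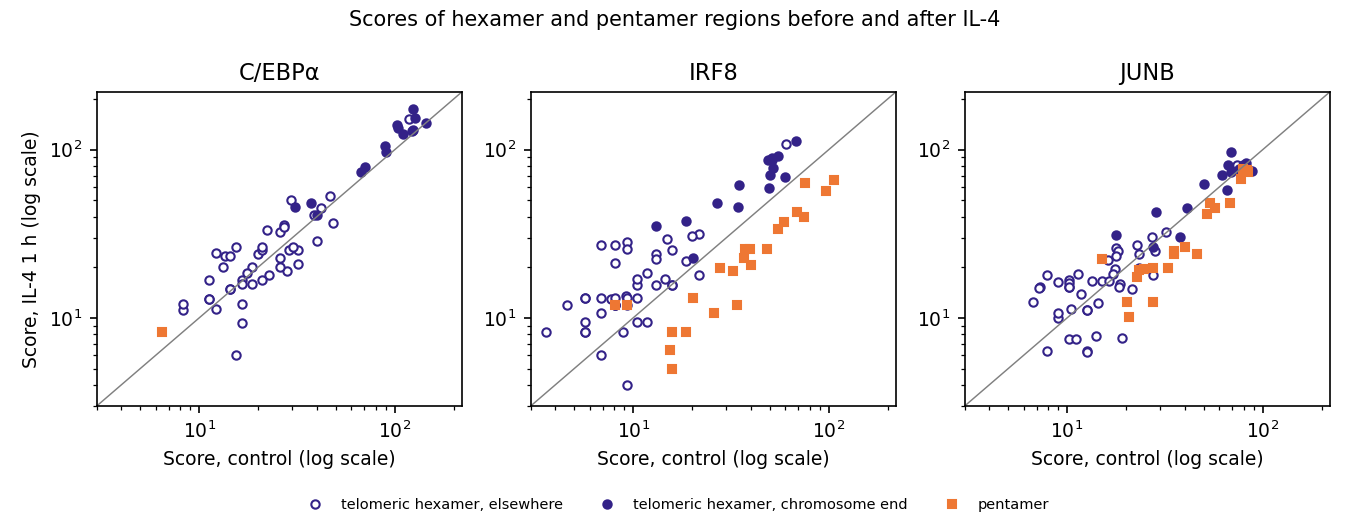
Peak score after IL-4 (vertical) against the score in control (horizontal), both on log scales, for C/EBPα, IRF8 and JUNB. Each point is 1 region, either 1 of the 59 telomeric hexamer regions called in all 6 lists (filled at a chromosome end, open elsewhere) or a pentamer region with a peak in both conditions (squares), and the line marks equal scores. In IRF8 51 of 59 hexamer points lie above the line and 21 of 23 pentamer points below it.

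Hexamer copies in the assembly were searched as perfect runs of at least 24 bases, with runs within 100 bp of each other taken as 1 locus. There were 311 such loci, and whether they carried a peak went with their length. Of the 120 loci of 24 to 47 bases, 3 (2.50%, 0.854 to 7.09) lay under a peak of any list. Of the 191 loci of 48 bases or more, 128 (67.0%, 60.1 to 73.3) did, and the other 63 had no peak in any list.

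Among all 160 units of 1 to 6 bases with at least 30 loci, 6 had more than 20% of their loci under peaks of at least 1 list. Over the 740820 loci of all units, 0.107% lay under a C/EBPα peak in control and 0.106% after IL-4, 0.515% and 0.571% under an IRF8 peak, and 0.0462% and 0.0371% under a JUNB peak. The telomeric hexamer had 31.8% and 32.8% of its loci under C/EBPα peaks, 27.7% and 36.0% under IRF8 peaks and 27.0% and 31.5% under JUNB peaks. It was the only one of the 6 with more than 20% in C/EBPα. The pentamer GAATG was shared by IRF8 and JUNB, and the remaining 4 were found under IRF8 peaks. The CA repeat, with 231458 loci, had 0.495% and 0.530% under IRF8 peaks, close to the share over all units.

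**Figure D4:**
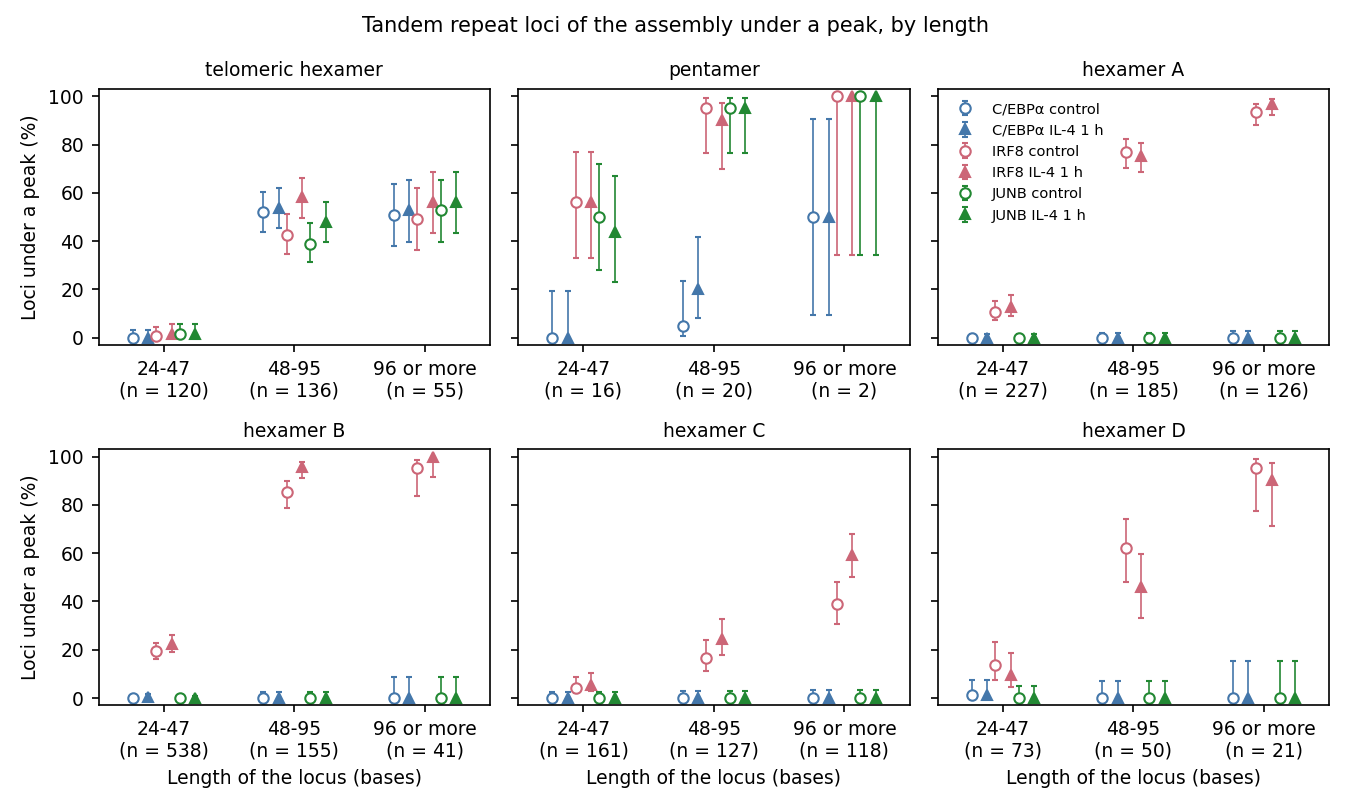
Percent of tandem repeat loci of the assembly that lay under a peak, by length of the locus in bases, for the telomeric hexamer, the pentamer GAATG, and 4 other hexamers. Hexamer A is GAAAGA, hexamer B is GGTTTT, hexamer C is GGGAAA and hexamer D is GAAGCA. Open circles are control and filled triangles IL-4 lists, colours are factors, bars are Wilson 95% intervals and n is the number of loci. For hexamers A to D the IRF8 share rises with each length class, to 93.7% and 96.8% for loci of hexamer A of 96 bases or more, while for the telomeric hexamer after IL-4 it is 58.1% at 48 to 95 bases and 56.4% above.

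The pentamer GAATG, the unit that also builds classical human satellites, was found in another pattern. It was the centre of 22 IRF8 peaks in each condition and of 23 and 22 JUNB peaks, but of 0 and 3 C/EBPα peaks. Of its 25 regions, 20 had IRF8 and JUNB peaks without C/EBPα, 4 had all 3 factors and 1 had JUNB alone. Of only 38 loci in the assembly, 78.9% and 76.3% lay under IRF8 peaks and 76.3% and 73.7% under JUNB peaks. In the JUNB lists 82.6% and 81.8% of the pentamer peaks were in the top 10% of scores, and their median score was 32.95 in control and 24 after IL-4. In IRF8 it was 35.5 and 20.3.

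The pentamer scores were lower after IL-4 in both factors. In IRF8, 21 of 23 regions with a peak in both conditions scored lower, with a median log2 ratio of -0.71 (quartiles -0.94 and -0.61). In JUNB, 20 of 21 scored lower, with a median of -0.37 (-0.61 and -0.22), which was a smaller difference than the median over all JUNB pairs (-0.54). The IRF8 difference went against the direction of the IRF8 list as a whole, and with both scores divided by the median of their list 3.70% of the members with a pentamer run still scored higher after IL-4. For JUNB this scaling moved the share from 3.70% to 40.7%. Among regions annotated with the pentamer, the one in an intron near D17Wsu104e had the highest control scores. It was the only one of them in all 6 lists. The scores were 107 and 65.8 for IRF8, 84.0 and 74.0 for JUNB and 6.49 and 8.25 for C/EBPα. An intergenic region near Gm4736 on chromosome 6 scored 97.03 and 57.2 for IRF8 and 83.0 and 76.0 for JUNB, with no C/EBPα peak. The mixed CACTC and CATTC array near Arid1b scored 156 for JUNB in control, the highest of 3940 peaks, and 82.5 after IL-4. A region in intron 2 of Bbx, a gene for an HMG-box protein, kept its JUNB peaks (23.4 and 19.4) and had an IRF8 peak in control alone (17.6).

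The 4 other hexamers lay under IRF8 peaks and almost never under those of C/EBPα or JUNB. The unit GAAAGA had 538 loci, 52.8% (48.6 to 56.97) under an IRF8 peak in control and 53.9% (49.7 to 58.1) after IL-4, and 0 under any C/EBPα or JUNB peak. Its share was 10.6% and 12.8% for loci of 24 to 47 bases, 76.8% and 75.1% for 48 to 95 bases, and 93.7% and 96.8% above that. GGTTTT had 734 loci, 37.5% and 42.2% under IRF8 peaks, and all 41 loci of 96 bases or more had one after IL-4. GAAGCA had 144 loci, 42.4% and 34.0% of them under IRF8 peaks, and GGGAAA had 406 loci, 18.2% and 27.1% of them under such peaks. Copies on either strand were counted. JUNB had no peak on any locus of these 4 units, and C/EBPα at most 3, on GGTTTT after IL-4. Length went with an IRF8 peak for each of the 4 units, whereas CA loci of 96 bases or more had IRF8 peaks in 0.452% of cases in both conditions.

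These units also lay inside members that the annotation names otherwise. Among IRF8 members annotated A-rich or T-rich, 43.6% held a run of GGTTTT in each condition and 21.3% and 18.1% a run of GAAAGA. Among C-rich and G-rich members 21.2% and 27.6% held a run of GGGAAA. The satellite IMPB_01, the most frequent satellite name with 57 and 54 IRF8 peaks, held a run of GAAAGA in 70.2% and 72.2% of cases. Over all IRF8 peaks the shares were 0.733% and 0.737% for GGTTTT, 0.754% and 0.684% for GAAAGA, and 0.197% and 0.261% for GGGAAA. Low-complexity and satellite peaks of IRF8 were thus in part tandem hexamer peaks under another name. The strongest low-complexity peak of IRF8, a T-rich stretch in intron 1 of Map4, which encodes a microtubule-associated protein, held the GAAAGA array shown above and scored 232 in control and 242 after IL-4. The strongest IMPB_01 peaks lay upstream of Ube2n, a ubiquitin-conjugating enzyme gene (96.2 and 94.6), and in intron 7 of Herc1 (70.7 and 98.1).

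The direction after IL-4 differed between these units although all were IRF8 peaks. Of the paired IRF8 members that held the unit, 110 of 148 scored higher after IL-4 for GGTTTT (74.3%, 66.7 to 80.7; median log2 ratio 0.36) and 48 of 60 for GGGAAA (80.0%, 68.2 to 88.2; 0.56). For GAAAGA it was 102 of 201 (50.7%; 0.02) and for GAAGCA 11 of 37 (29.7%, 17.5 to 45.8; -0.37). Over all IRF8 pairs 55.4% scored higher. The GAA trinucleotide was also low, with 17 of 47 higher (36.2%; -0.24), and A-rich or T-rich members high, with 137 of 204 (67.2%; 0.29). Groups can share peaks, since 20 of the 50 IRF8 control members with a run of GAAGCA were annotated (GAA)n. The order of the 4 hexamers stayed when scores were divided by the list median, with 32.4% for GAAGCA, 59.2% for GAAAGA, 78.4% for GGTTTT and 80.0% for GGGAAA. Whether the units differ beyond the spread between samples could not be tested with 1 sample per condition.

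**Figure D5:**
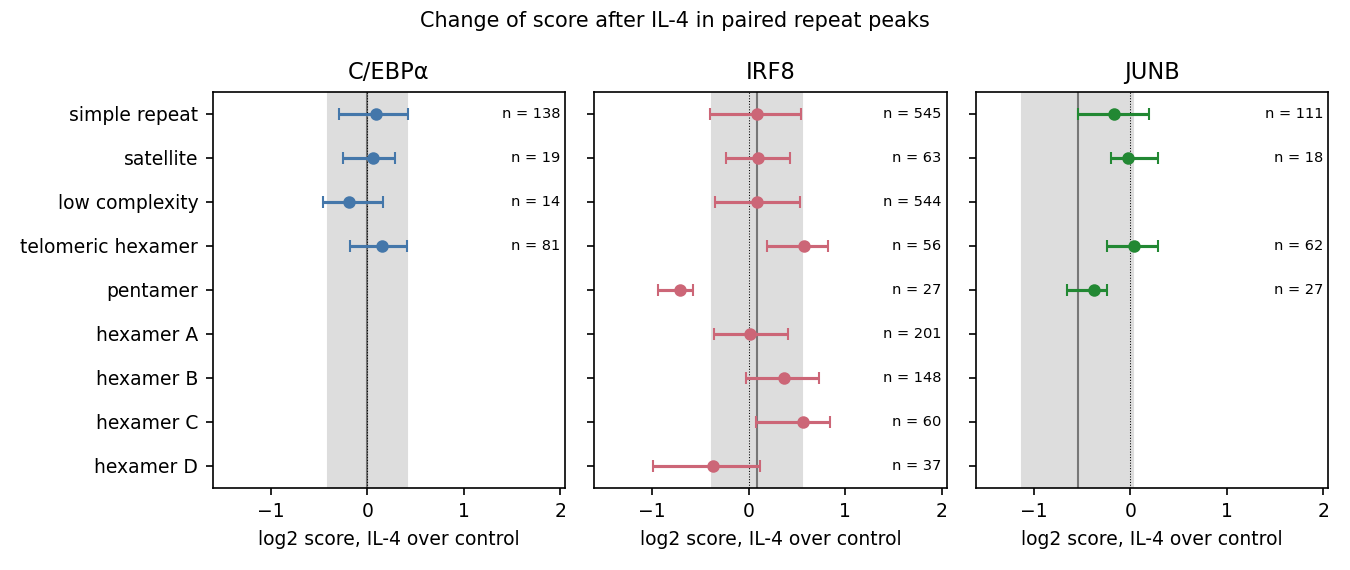
Median log2 ratio of the score after IL-4 over the score in control for paired repeat peaks, by class and by repeat unit, with units counted in members that hold a run of them where hexamer A is GAAAGA, hexamer B is GGTTTT, hexamer C is GGGAAA and hexamer D is GAAGCA. Points are medians, bars the quartiles, n the number of pairs, the grey line and band the median and quartiles over all pairs of the factor, and the dotted line no change; groups under 5 pairs are left out. In IRF8 the telomeric hexamer (0.57) and hexamer C (0.56) lie above and the pentamer (-0.71) and hexamer D (-0.37) below the median of all pairs (0.08).

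Binding motifs were searched as letters on both strands within 200 bp around the peak centre. The AP-1 element was searched as TGANTCA and the C/EBP element as TTGCNNAA. The IRF pair was a GAAA followed by another GAAA after any 2 bases, the ETS-IRF element a GGAA followed by a GAAA after any 2 bases, and the STAT6-type element a TTC followed by a GAA after any 4 bases. The IRF pair and the ETS-IRF element can overlap. An IRF pair or ETS-IRF match was present in 51.5% and 52.4% of the low-complexity peaks of IRF8 and in 58.7% and 57.3% of its satellite peaks, against 23.2% and 21.9% of all IRF8 peaks. Simple repeats were near that background (24.5% and 22.8%). The share of purines or of pyrimidines, whichever was larger, had medians of 75.5% and 76% in low-complexity peaks of IRF8. It was 80.5% and 74% in its satellite peaks, against 55.5% and 55% in all IRF8 peaks. How far this base composition by itself gives such matches was not tested. The stretches printed above for GAAAGA and GGGAAA held 14 and 13 IRF pair matches, counted over capitals and lower case together. The stretch near Zfp619 held 8, all outside its capital GAAGCA copies, and the GGTTTT stretch held none. In telomeric hexamer peaks of IRF8 there was a match of either kind in 0 of 57 and 1 of 87.

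JUNB and C/EBPα members mostly lacked the letters of their own factor. The AP-1 element was found in 12.4% and 8.72% of JUNB members, against 55.2% and 50.2% of all JUNB peaks, and in none of the 23 and 22 pentamer peaks. The C/EBP element was found in 12.9% and 15.6% of C/EBPα members, against 34.3% and 33.3% of all C/EBPα peaks, and in 3 of 85 and 2 of 91 hexamer peaks. The STAT6-type element was found in 4% of control and 3.90% of IL-4 members of C/EBPα, in 3.07% and 3.49% of IRF8 members and in 3.63% and 2.91% of JUNB members. Over all peaks the shares were 6.42% and 10.2%, 6.07% and 8.52%, and 6.24% and 11.4%. The STAT6-type share of the lists was thus higher after IL-4 in each factor, and among members it stayed between 2.91% and 4% in all 6 lists. A missing match says only that these letters are not in the window.

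Repeat peaks were compared between conditions by whether a peak of the same factor overlapped them by at least 1 bp in the other condition. Of the control members, 76.0% were kept after IL-4 for C/EBPα (70.0 to 81.1; all peaks 78.6%), 80.6% for IRF8 (78.4 to 82.5; all peaks 78.6%) and 68.9% for JUNB (62.1 to 75.02; all peaks 35.8%). Of the IL-4 members, 80.1% had a control peak for C/EBPα (all peaks 78%), 76.5% for IRF8 (69.6%) and 80.8% for JUNB (60.8%). JUNB thus kept its repeat peaks more often than its peaks in general. JUNB members also scored higher, and peaks with high scores were kept more often, so the shares were taken within score ranges. Kept were 26 of 69 JUNB members scoring under 10 (37.7%; all peaks 23.8%), 52 of 67 from 10 to under 20 (77.6%; 52.4%) and 55 of 57 from 20 (96.5%; 88.8%). The share of members was above that of all peaks in each range, and the hexamer was not taken out within the ranges. Whether the score accounts for the difference was not tested.

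The hexamer carried much of the higher JUNB share of kept members. Hexamer peaks were kept in 95.3% of cases for C/EBPα (81 of 85), 94.7% for IRF8 (54 of 57) and 91.0% for JUNB (61 of 67). Without them 57.1% of JUNB members (48.4 to 65.4) were kept, still above the 35.8% of all JUNB peaks. In the reverse direction 22 of the 87 IRF8 hexamer peaks after IL-4 had no IRF8 peak in control. The pentamer was kept in 21 of 22 IRF8 and 20 of 23 JUNB peaks, the GAA trinucleotide in 42 of 77 IRF8 peaks (54.5%), and A-rich or T-rich stretches in 205 of 225 IRF8 peaks (91.1%).

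The score of paired members was higher after IL-4 in 94 of 171 C/EBPα pairs (55.0%, 47.5 to 62.2) and 633 of 1152 IRF8 pairs (54.9%, 52.1 to 57.8), against 49.7% and 55.4% of all pairs. In JUNB it was higher in 54 of 132 (40.9%, 32.9 to 49.4), against 26.4% of all pairs. Without the telomeric hexamer it was 19 of 72 JUNB pairs, also 26.4%, and 42 of 90 C/EBPα pairs (46.7%). The JUNB share turned to 65.2% when scores were divided by the list median and to 51.5% with percentile ranks, and the median score of the whole list went from 7.88 to 6.21. By class, the median log2 ratio was 0.09, 0.08 and -0.17 for simple repeats in C/EBPα, IRF8 and JUNB, and 0.06, 0.09 and -0.02 for satellites. For low complexity it was -0.19 (14 pairs), 0.08 (544 pairs) and -1 (3 pairs).

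Among satellites the gamma satellite stood out by width. Its region near Gm5458 on chromosome 14 was called as 1 peak of 3814 and 3804 bp by C/EBPα and of 3804 bp by JUNB in control, against medians of 196 to 291 bp in the 6 lists. It was called as 2 adjacent peaks by IRF8, 2274 and 1029 bp wide in control and 2712 and 1039 bp after IL-4, and by JUNB after IL-4 (2714 and 1031 bp). The C/EBPα peaks scored 60.5 and 62.8. The IRF8 peaks scored 61.3 and 59.4 in control and 60.8 and 62.5 after IL-4, the wider peak first. JUNB scored 59.2 in control, and 57.05 and 53.02 after IL-4. Of the 8 gamma satellite regions, 3 were in all 6 lists. Another of these lay in intron 7 of the transcript NM_174857 near Smc5 on chromosome 19, where C/EBPα scored 35.9 and 31.1, IRF8 15.9 and 21.2, and JUNB 22.9 and 35.6. The last lay near Pisd-ps1, toward the proximal end of the known sequence of chromosome 11, with 43.2 and 34.9, 8.67 and 10.2, and 23.98 and 21.03. Beside them the satellite SYNREP_MM had 2 regions in all 6 lists, near Epha7 (59.2 and 58.9, 31.03 and 21.2, 24.8 and 30.9) and in intron 2 of Ankar (13.3 and 11.1, 6.85 and 10.6, 7.28 and 8.70). The sixth shared satellite region, near Cdh12, joined IMPB_01 with a telomeric hexamer and scored 8.31 and 11.1, 10.5 and 15.7, and 16.4 and 16.6.

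The 6 low-complexity regions in all 6 lists held none of the telomeric hexamer annotation. In each of them only 2 or 3 of the 6 lists had a peak centred on a repeat. The other scores given here are of peaks in the same region whose centre was annotated otherwise. The CT-rich region near 1700016G22Rik on chromosome 13 scored 73.5 and 73.8 for C/EBPα and 61.5 and 73.5 for IRF8, and 8.93 and 8.68 for JUNB. The GA-rich region near D1Ertd622e scored 111 and 94.3, 51.8 and 50.4, and 8.09 and 9.04. The CT-rich region in an intron of A430035B10Rik scored 12.3 and 6.79, 56.8 and 55.7, and 9.46 and 15.8. In the CT-rich region near Hpse, the heparanase gene, IRF8 went from 14.8 to 47.3 and JUNB from 8.82 to 3.12, with 9 and 9.32 for C/EBPα. The C-rich region in intron 1 of Agap1 scored 25.3 and 12.8, 16.7 and 23.9, and 10.3 and 7.89, and the G-rich region in intron 1 of Fndc3b 31.5 and 37.2, 42.7 and 31.6, and 6.65 and 2.80. In 5 of the 6 every 31-base stretch was unique, and near 1700016G22Rik 85.3% were.

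Of the single members with the highest scores some lay outside these groups. The highest C/EBPα member in control was a (TTGG)n repeat near Zfp407, in fully unique sequence, with 169. The C/EBPα peak that overlapped it after IL-4 scored 218 and was not annotated to the repeat. The highest IRF8 member in control was the CA repeat upstream of Foxe3, with 247, which scored 235 after IL-4. After IL-4 the highest was the T-rich stretch in Map4, with 242. For low complexity the highest C/EBPα members were a CT-rich stretch in intron 1 of Zdhhc14 (33.99 and 24.96) and one near Fam111a (11.0 and 18.4). The highest JUNB members of that class scored 12.6 in control, in intron 2 of Sept9 with no IL-4 peak, and 11.6 after IL-4 near Spry4 (7.63 in control).

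Members present in only 1 condition mostly scored under 10, as did all such peaks. Of those found only in control this held for 49 of 54 C/EBPα members (all peaks 4723 of 5228), 253 of 279 IRF8 members (7372 of 8043) and 43 of 60 JUNB members (1995 of 2530). Of those found only after IL-4 it held for 36 of 46 (4607 of 5404), 305 of 343 (11494 of 12804) and 28 of 33 (864 of 912). The highest IRF8 member found only after IL-4 was an A-rich stretch near Aldh1b1, an aldehyde dehydrogenase gene, which scored 58.3 and had no peak in any other list. It was followed by a CCCTAA hexamer near Plcxd1 (33.8), where every list except IRF8 control had a peak, and a (CAAA)n repeat near Ang6 (29.1). For C/EBPα they were an (A)n repeat near Pde4d (23.3) and hexamers near Mettl21e (16.9) and Gm12633 (13.0). For JUNB they were hexamers near Adcyap1 (15.2) and Wwox (12.5), each with C/EBPα and IRF8 peaks in both conditions, and a (TTTC)n repeat near Ubtfl1 (11.2).

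Among the highest C/EBPα members found only in control were a hexamer near Mir3964 and a SYNREP_MM copy on chromosome Y near Gm21708 (12.2 each). For IRF8 the highest were a (TG)n repeat near Ggh (21.6), a GA-rich stretch in intron 4 of Rad54l (19.2) and the pentamer in Bbx. For JUNB they were repeats of TTG or CAA near Nyap2 (21.9), Rgmb (21.8) and Slitrk1 (17.4), all 3 without a peak in any other list.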

How the data were processed

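Peak lists of 6 ChIP-seq samples were analysed, each from 1 sample. The submitters' processing notes name BWA 0.7.10, SAMtools 0.1.19, MACS2 2.0.10 and HOMER 4.2. Reads had been aligned to mm10, peaks called under a q-value limit and freed of blacklisted regions, and the remaining ones annotated by the authors. The authors deposited a peak score without a unit, and it was used as deposited. The read depth, the control library of each call and which of 2 library kits served which sample are not given in the sources used here. Repeats whose reads map to many places can gain or lose peaks through read placement.

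Members were the peaks annotated as Simple_repeat, Satellite or Low_complexity. Members, repeat groups and lists were chosen with earlier results of these data known, and the tandem units were singled out after their values were seen. Peaks of 1 factor overlapping by at least 1 bp were paired, and peaks of all lists that touched were merged into regions, whose score in a list is that of its highest peak. Sequence came from the mm10 reference. Uniqueness is the share of 31-base stretches within 200 bp of sequence around the centre that occur once in it, both strands counted. Loci are perfect runs of at least 24 bases of a unit of up to 6 bases, joined within 100 bp. Shares carry Wilson 95% intervals for counting error. With 1 sample per group no test was run. Regions were named as those in all 6 lists (at most 6 per class), the highest score per class and list, and the 3 highest per factor found in only 1 condition. A named region and the hexamer sequences are not reported here. No member lay at a promoter. Nearest genes are those of the deposited annotation. Alternatives covered overlap, peak width, score limits, list length, score scaling, chromosomes and window. The software was numba 0.67.0, SciPy 1.17.1, matplotlib 3.10.9, pandas 2.3.3 and NumPy 2.4.6 under Python 3.11.15, and the scripts were tested on simulated data.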

Additional observations from a re-analysis of the deposited data

Results flagged for a closer look

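The deposited score of paired repeat peaks moved in opposite directions between factors, and none of these differences was tested, since each group held 1 sample. Over all members the median log2 ratio of IL-4 over control score was 0.0826 in C/EBPα, 0.0811 in IRF8 and -0.164 in JUNB. For simple repeats it was 0.0904, 0.0811 and -0.168. For members other than the telomeric hexamer it was -0.0433 in C/EBPα, 0.0552 in IRF8 and -0.309 in JUNB. Over all pairs of each factor the median was -0.00376 in C/EBPα, 0.0829 in IRF8 and -0.545 in JUNB. IRF8 and JUNB thus had opposite signs over all pairs too. The JUNB direction depends on scaling. Of the JUNB member pairs 40.9% scored higher after IL-4 as deposited, 65.2% with scores divided by the list median and 51.5% with percentile ranks. The last share was close to an even split, while the scaling by the list median gave the direction of the other factors.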

How the results depend on the processing

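No paired analysis was possible because each factor and condition had 1 sample. Without the telomeric hexamer, an alternative chosen after seeing the data, 43 in place of 102 regions were in all 6 lists, 64.3% of C/EBPα and 57.1% of JUNB members were kept after IL-4, 72.1% of C/EBPα IL-4 members had a control peak, and 46.7% of C/EBPα and 26.4% of JUNB pairs scored higher after IL-4. Without members under 50% unique, also chosen after seeing the data, 74.97% of IRF8 members were kept, 71.4% of IRF8 IL-4 members had a control peak, and 48.4% of low-complexity IRF8 pairs scored higher, which reversed that value. With scores divided by the list median the share higher after IL-4 was 60.8% in IRF8 and reversed to 65.2% in JUNB, and to 63.1% for JUNB simple repeats. With percentile ranks it was 57.9% in IRF8 and moved just past 50%, to 51.5%, in JUNB. With lists of equal length 77.9% of IRF8 and 79.1% of JUNB members were kept, and 78.9% of IRF8 IL-4 members had a control peak. At scores of at least 10, 86.7% of C/EBPα and 83.0% of IRF8 members were kept, 79.1% of IRF8 IL-4 members had a control peak, and members made up 1.07% and 1.11% of the C/EBPα, 4.33% and 3.97% of the IRF8 and 9.38% and 25.2% of the JUNB lists. Within 100 bp, AP-1 matched 7.77% and 4.07% of JUNB, C/EBP 6.22% and 8.23% of C/EBPα, and the IRF pair 25.2% and 25.2% of IRF8 members. The cause was not tested. Of the remaining values for whole member sets 50 moved by less than their interval. Of the values for classes, repeat units and other motif searches, 271 also stayed, 91 moved further and 2 reversed. Unknown read depth limits every comparison between lists.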
